A study of Mus musculus with 4 samples.

Results

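Collagens are the main fibre proteins of the extracellular matrix. Their chains wind into triple helices that assemble into fibrils, into networks of basement membranes or into filaments. In healthy brain and spinal cord they lie mostly in the meninges, around blood vessels and in peripheral nerve roots, while the tissue between the cells holds little fibrillar collagen. The collagen chain genes described here are all genes that the array names by the pattern Col, a number, a and a number. They were 44 genes with 91 probes of 60 bases (109 spots per array), out of 23666 genes that a mouse gene table (GRCm38.p6) knows by the symbol on the array. Membership thus rested on names alone and on no measured value. By structure, 11 encode chains of fibrillar collagens, 9 encode FACIT chains (fibril-associated collagens with interrupted triple helices, which decorate fibrils), 8 encode chains of basement membranes and 16 encode other chains, among them type VI collagen and the transmembrane collagens.

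RNA came from 4 samples of mice aged 24 weeks: spinal cord of transgenic mice, spinal cord of wild-type mice, brainstem/cerebellum of transgenic mice and brainstem/cerebellum of wild-type mice. The submitters call the transgenic mice MSA Tg, the abbreviation of multiple system atrophy, in which alpha-synuclein aggregates in oligodendrocytes and neurons are lost, and list C57BL/6, 129 and C3H as the strain background of both genotypes. The labels used here name neither the transgene nor its promoter, and leave open how many animals went into a sample. With 1 single-colour Agilent array per group, differences have no replicate check, and neither tests nor p-values are given. The design sets each tissue of the transgenic mice against the same tissue of the wild type.

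A level is the log2 of the processed signal minus that of the array's 75th percentile over all probes, so a level of 0 is the brightness at that percentile. A difference is a level minus another level of the same probe, and 2-fold is 1 on this scale. Where a gene had several probes, the probe brightest over the 4 arrays stands for it. Levels of different genes are not set against each other, because probes bind with different strength. Repeated spots within an array gave a technical SD of a difference of 0.09 for bright probes, 0.27 for levels between -5 and -3 and 0.71 below -5. This error leaves out animals and hybridisations, and below a level of 1 it rests on few probes. The array of wild-type spinal cord lies on a slide of its own and the other 3 share one. Genotype and slide therefore cannot be told apart in the spinal cord, and neither can slide and tissue in the wild type.

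The tissue labels were checked first, since the source name of all 4 samples reads brain. Of 6 Hox genes of the spinal cord, all 6 were above background on both spinal cord arrays and 2 on each brainstem/cerebellum array. Gabra6, a receptor subunit of cerebellar granule cells, was at 4.03 in transgenic and 3.95 in wild-type brainstem/cerebellum and not above background in spinal cord. The levels went with the tissue labels.

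The array showed most collagen genes near the 3′ end of their transcripts. Of the 30 genes with several probes, the brightest one was the most 3′ in 21. Of the 91 probes, 56 were well above background on at least 1 array and 35 on none. Of the 44 genes, 33 were above background on all 4 arrays, 5 on some and 6 on none. The 6 genes on none were Col4a3, Col15a1, Col14a1, Col6a6, Col10a1 and Col28a1.

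The repeat that makes a collagen can be read in some probes. Glycine recurs along the triple helix at a fixed step and its codons start with GG, so the coding sequence of a helix has GG every 9 bases. Such a run over a whole probe occurred in 4 of 91 collagen probes (4.4%) and in 5 of 56514 other probes (0.00885%). The 4 collagen probes are shown because they hold the family's defining repeat, with the GGN codons in capitals, 5′ to 3′ on the strand of the gene. Their places in mm9, from the array files, are chr17:34189287-34189453 (plus strand), chr4:47283786-47283845 (plus), chr9:20590066-20590795 (minus) and chr1:92689602-92690594 (minus).
Col11a2: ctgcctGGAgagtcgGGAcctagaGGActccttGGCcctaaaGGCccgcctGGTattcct
Col15a1: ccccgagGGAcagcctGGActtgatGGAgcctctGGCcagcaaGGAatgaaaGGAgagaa
Col5a3: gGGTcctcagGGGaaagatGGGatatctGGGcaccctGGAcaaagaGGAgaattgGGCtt
Col6a3: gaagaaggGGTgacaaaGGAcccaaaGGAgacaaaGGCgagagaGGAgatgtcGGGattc
None of these 4 probes was above background on any array. Col11a2, Col5a3 and Col6a3 are therefore read from other probes, and Col15a1 is among the 6 genes with no reading.

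In the spinal cord, collagen genes stood higher on the transgenic array, with the FACIT chain Col20a1, the transmembrane chain Col13a1 and the type IX chain Col9a3 furthest apart among those above background on both arrays. Both chains of type I collagen were nearly level at their brightest probes. Among the 35 collagen genes above background on both arrays, 12 passed 2-fold as higher in transgenic spinal cord and 0 as lower. The shares of all genes so measured were 8.6% higher and 6.35% lower. With bounds counted the higher collagen genes were 13, Col6a5 added, beside 9.72% of all genes. The median difference of the collagen genes was 0.53, beside -0.05 over all genes, and 26 of the 35 were above 0, against 46.2% of all genes. Scaling on the spike-in control probes moves the median of all genes to -0.41 and gives 8 collagen genes higher and 2 lower, with 19 of 35 above 0 and a collagen median of 0.17. The 4 that then pass 2-fold no longer are Col2a1, Col6a1, Col6a2 and Col12a1, and the 2 lower ones are Col19a1 at -1.30 and Col24a1 at -1.26.

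**Figure D1:**
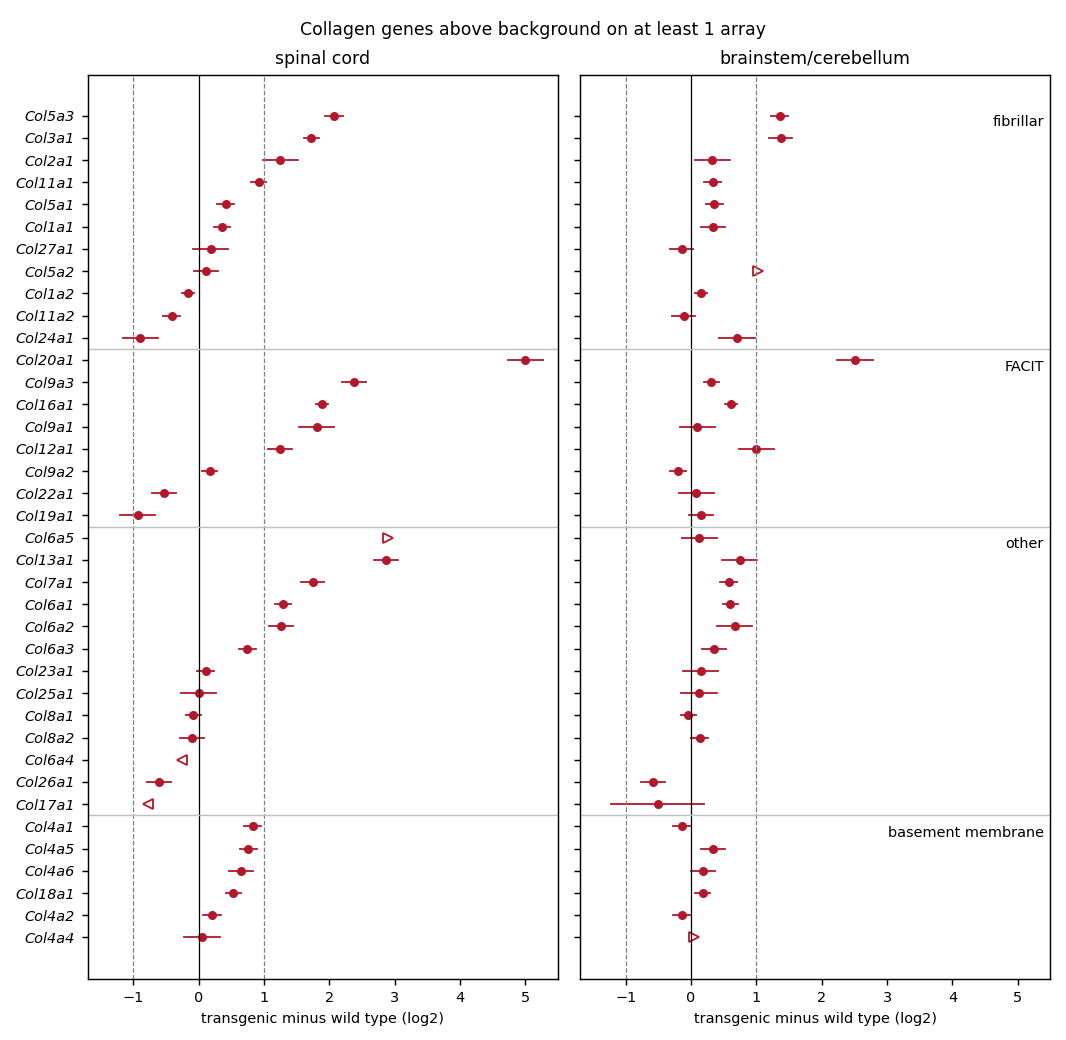
Difference in level, transgenic minus wild type (log2, horizontal), of the 38 collagen genes above background on at least 1 array, in spinal cord (left) and brainstem/cerebellum (right), 1 array per group. Points carry ± 1 technical SD from repeated spots, open triangles are bounds for genes above background on 1 array, no point means no reading, and dashed lines mark 2-fold. The 12 points right of the 2-fold line in spinal cord include 5 FACIT genes, with Col20a1 at 5.0.

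FACIT collagens differed most by count, with 5 of 8 measured genes at least 2-fold higher in transgenic spinal cord and a class median of 1.52. Col20a1, a FACIT chain read by 1 probe (chromosome 2, 180752070 to 180752129 in mm9), was at 1.15 in transgenic and -3.85 in wild-type spinal cord, and at -1.65 in transgenic and -4.16 in wild-type brainstem/cerebellum. Both transgenic arrays lay above both wild-type arrays. The difference in spinal cord was 5.0, or 32.0-fold, and 21 of 15623 genes had a larger one. No other probe checks it.

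Col9a3 and Col9a1 encode chains of type IX collagen, which coats the type II fibrils of cartilage together with the Col9a2 chain. Col9a3 was at 0.23 in transgenic and -2.15 in wild-type spinal cord, and at -0.51 in transgenic and -0.82 in wild-type brainstem/cerebellum. Here the wild-type spinal cord array, the one on the other slide, was the low one and the other 3 lay closer together. The difference in spinal cord was 2.38 at this probe and 1.97 at a second probe. Col9a1 showed the same order of arrays in spinal cord at a dimmer level, with -2.28 in transgenic and -4.09 in wild-type spinal cord, a difference of 1.80, and it was at -3.76 in transgenic and -3.86 in wild-type brainstem/cerebellum. With normexp background correction this difference is 0.78. The remaining chain, Col9a2, differed little, with 0.06 in transgenic and -0.11 in wild-type spinal cord. The 3 chains of this one collagen thus did not differ alike on these arrays.

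Col16a1, a FACIT chain of small fibrils and microfibrils, was at 3.51 in transgenic and 1.62 in wild-type spinal cord, and at 1.70 in transgenic and 1.08 in wild-type brainstem/cerebellum. Its difference was 1.88 in spinal cord and 0.62 in brainstem/cerebellum, each many times the technical SD of 0.09. Col12a1, whose protein lies on type I fibrils, was at -0.96 in transgenic and -2.21 in wild-type spinal cord, a difference of 1.24. In brainstem/cerebellum it was at -2.92 in transgenic and -3.91 in wild-type mice, just short of 2-fold at 0.99. The remaining FACIT genes went the other way in spinal cord without reaching 2-fold. Col19a1, a chain of basement membrane zones, was at -3.44 in transgenic and -2.5 in wild-type spinal cord, and at -1.98 in transgenic and -2.13 in wild-type brainstem/cerebellum, so transgenic spinal cord was the low array. Col22a1, known from tissue junctions such as that of muscle and tendon, was at -2.53 in transgenic and -2.0 in wild-type spinal cord, and at -3.48 in transgenic and -3.55 in wild-type brainstem/cerebellum.

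Among the fibrillar chains, 3 of 11 were at least 2-fold higher in transgenic spinal cord, and the class median was 0.35. Col3a1 forms type III collagen, which runs with type I in vessel walls and other compliant tissue. It was at 1.38 in transgenic and -0.35 in wild-type spinal cord, and at -1.5 in transgenic and -2.87 in wild-type brainstem/cerebellum. Within each tissue the transgenic array was higher, by 1.72 and 1.37, and both spinal cord arrays lay above both brainstem/cerebellum arrays. Col5a3, a chain of the type V collagen that regulates fibril growth, was at 0.65 in transgenic and -1.42 in wild-type spinal cord, a difference of 2.07. In brainstem/cerebellum it was at -0.37 in transgenic and -1.73 in wild-type mice, a difference of 1.36, so both transgenic arrays lay above both wild-type arrays. Col2a1, the cartilage chain, passed 2-fold at a dim level, with -3.28 in transgenic and -4.52 in wild-type spinal cord, and lay at -4.01 in transgenic and -4.34 in wild-type brainstem/cerebellum.

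The most abundant fibrillar collagen of the body did not follow Col3a1. Col1a1, the larger part of type I collagen, was at 0.50 in transgenic and 0.14 in wild-type spinal cord, and at -1.67 in transgenic and -2.01 in wild-type brainstem/cerebellum. The differences of 0.35 and 0.34 were alike in size, but with spike-in scaling the one in spinal cord falls just below 0. This probe has 10 spots per array, whose SD within an array was between 0.10 and 0.14. A second probe of Col1a1 with 10 spots differed by 0.33 in spinal cord. A further probe gave 0.34 in spinal cord and -0.19 in brainstem/cerebellum. Col1a2, its partner chain, was at 2.56 in transgenic and 2.73 in wild-type spinal cord, and at 1.52 in transgenic and 1.37 in wild-type brainstem/cerebellum. At -0.17 and 0.15 it had no difference near 2-fold, though a second Col1a2 probe gave -0.74 in spinal cord. A further, dim Col1a2 probe was above background in wild-type spinal cord at -4.18 and not in transgenic spinal cord, at least 2.15-fold lower. The other type V chains differed less than Col5a3, with 0.41 for Col5a1 and 0.11 for Col5a2 in spinal cord. Col11a1, a chain of thin fibrils, was at -0.04 in transgenic and -0.96 in wild-type spinal cord, just short of 2-fold at 0.92, and at -1.43 in transgenic and -1.76 in wild-type brainstem/cerebellum. Col11a2 stood at -0.41 in spinal cord. Col27a1, a chain of cartilage, stood at 0.19 there.

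The stretches upstream of 4 of these genes are shown because Col3a1, Col5a3 and Col16a1 were at least 2-fold higher in transgenic spinal cord and Col1a2 was not. They are 200 bases before the gene start, from RefSeq on GRCm38.p6, at chr1:45311338-45311537 (plus strand), chr9:20815118-20815317 (minus), chr4:130047617-130047816 (plus) and chr6:4505418-4505617 (plus), 5′ to 3′ on the strand of the gene. Capitals mark the TATA box TATAAA, the CCAAT box CCAAT and the GC box GGGCGG, searched on both strands.
Col3a1: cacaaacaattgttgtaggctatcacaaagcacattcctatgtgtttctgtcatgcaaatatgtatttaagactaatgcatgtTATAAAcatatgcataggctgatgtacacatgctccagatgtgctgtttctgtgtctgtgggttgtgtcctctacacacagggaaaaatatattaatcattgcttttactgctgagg
Col5a3: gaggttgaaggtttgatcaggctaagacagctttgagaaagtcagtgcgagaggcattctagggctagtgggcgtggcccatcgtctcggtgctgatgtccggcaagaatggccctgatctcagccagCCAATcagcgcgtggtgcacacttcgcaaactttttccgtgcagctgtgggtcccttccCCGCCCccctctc
Col16a1: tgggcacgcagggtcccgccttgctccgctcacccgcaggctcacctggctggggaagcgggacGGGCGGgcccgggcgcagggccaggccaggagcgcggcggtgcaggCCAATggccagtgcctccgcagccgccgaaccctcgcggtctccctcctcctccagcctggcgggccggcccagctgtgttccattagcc
Col1a2: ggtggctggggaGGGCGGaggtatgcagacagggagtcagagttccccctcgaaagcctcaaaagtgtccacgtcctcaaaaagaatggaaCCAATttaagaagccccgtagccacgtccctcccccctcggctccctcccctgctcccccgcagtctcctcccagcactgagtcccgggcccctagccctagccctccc
Col5a3, Col16a1 and Col1a2 each held a CCAAT box and a GC box in this stretch. Col3a1 held the letters TATAAA alone, 117 bases before the gene start. In the upstream part of the windows of 38 collagen promoters (35 genes), TATAAA occurred in 13.2% and CCAAT in 34.2%, beside 12.4% and 33.8% of all 32851 promoters. GGGCGG occurred in 57.9% of the collagen promoters and in 32.7% of all. The AP-1 site TGANTCA and a 10-letter NF-kappaB motif each occurred in 1 collagen promoter (2.63%), that of Col6a1 and that of Col9a2. Of all promoters, 6.75% held the first and 0.98% the second. A match of letters is no evidence of binding, and genes on both sides of the 2-fold line shared the same boxes.

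Among the other collagens, 4 of 10 measured genes were at least 2-fold higher in transgenic spinal cord. Col13a1 encodes a transmembrane collagen known from neuromuscular junctions. At its brightest probe it was at 0.06 in transgenic and -2.81 in wild-type spinal cord, a difference of 2.87 (7.31-fold), and at -2.32 in transgenic and -3.06 in wild-type brainstem/cerebellum. Its probes disagree. A second, dimmer probe, further from the 3′ end, gave -4.93 in transgenic and -4.07 in wild-type spinal cord, a difference of -0.86. Col7a1, the anchoring fibril collagen of skin, was at -0.39 in transgenic and -2.13 in wild-type spinal cord, a difference of 1.74. Its levels in brainstem/cerebellum, -0.75 in transgenic and -1.32 in wild-type mice, lay between those 2 spinal cord values.

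Type VI collagen forms beaded filaments around cells from a Col6a1, a Col6a2 and a further, variable chain. Col6a1 was at 1.40 in transgenic and 0.11 in wild-type spinal cord, and at -0.36 in transgenic and -0.96 in wild-type brainstem/cerebellum. Col6a2, its neighbour on chromosome 10, was at -1.41 in transgenic and -2.67 in wild-type spinal cord, and at -3.45 in transgenic and -4.12 in wild-type brainstem/cerebellum. These obligate partners differed by nearly the same amount, 1.29 and 1.26 in spinal cord and 0.60 and 0.67 in brainstem/cerebellum. A second Col6a2 probe gave 0.77 in spinal cord. Of the variable chains, Col6a3 was at -1.21 in transgenic and -1.95 in wild-type spinal cord, and at -2.56 in transgenic and -2.91 in wild-type brainstem/cerebellum, differences of 0.74 and 0.35. A second Col6a3 probe went the other way in brainstem/cerebellum, at -2.72 in the wild type and not above background in transgenic mice, at least 6.41-fold lower. Col6a5 was at -2.86 in transgenic spinal cord and not above background in wild-type spinal cord, at least 7.47-fold higher, while its levels of -3.85 in transgenic and -3.97 in wild-type brainstem/cerebellum were alike. Col6a4 was above background in wild-type spinal cord alone, at -4.91, and Col6a6 on no array.

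Col8a1 and Col8a2, the short chains of vessel walls and of the corneal endothelium's membrane, differed by -0.08 and -0.11 in spinal cord. Of the transmembrane collagens, Col23a1 differed by 0.11 and Col25a1 was at -4.43 on both spinal cord arrays. Col26a1 was the one gene of this group, among those measured on all 4 arrays, that was lower by over 0.5 in both tissues of the transgenic mice. It was at -2.04 in transgenic and -1.43 in wild-type spinal cord, and at -2.86 in transgenic and -2.28 in wild-type brainstem/cerebellum, differences of -0.61 and -0.58. A second Col26a1 probe gave -1.12 and -0.71. Col17a1, the hemidesmosome collagen, was dim, at -4.51 in wild-type spinal cord and not above background in transgenic spinal cord, at least 1.71-fold lower. In brainstem/cerebellum it was at -5.19 in transgenic and -4.68 in wild-type mice, a difference of -0.51, while a second probe gave -0.04.

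Of the basement membrane chains, 0 of 6 in spinal cord and 0 of 5 in brainstem/cerebellum were at least 2-fold higher, beside 8.6% and 2.74% of all genes. Counts of 0 among so few genes are near these shares. All 6 were above 0 in spinal cord, with a median of 0.59. Col4a1 and Col4a2 make the common type IV network of vessels and lie head to head on chromosome 8, their starts in the gene table overlapping. Col4a1 was at -0.35 in transgenic and -1.18 in wild-type spinal cord, and at -1.32 in transgenic and -1.17 in wild-type brainstem/cerebellum. Col4a2 was at -1.03 in transgenic and -1.23 in wild-type spinal cord, and at -1.64 in transgenic and -1.51 in wild-type brainstem/cerebellum. The pair was thus unequal in spinal cord, 0.83 against 0.20, and equal in brainstem/cerebellum, -0.15 and -0.14.

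Col4a5 and Col4a6, another head-to-head pair on chromosome X, with starts 1343 bases apart, differed by 0.76 and 0.64 in spinal cord and by 0.33 and 0.18 in brainstem/cerebellum. Col4a5 was at -1.16 in transgenic and -1.92 in wild-type spinal cord. A second Col4a5 probe gave -0.15 in spinal cord. Col4a6 was at -1.90 in transgenic and -2.54 in wild-type spinal cord, and at -2.75 in transgenic and -2.93 in wild-type brainstem/cerebellum. Col4a4, a chain of the kidney's type IV network, was dim and differed by 0.05 in spinal cord. Col18a1, the parent of endostatin, was at 0.00 in transgenic and -0.53 in wild-type spinal cord, a difference of 0.53, and at 0.60 in transgenic and 0.42 in wild-type brainstem/cerebellum. The spinal cord differences of this class, though under 2-fold, exceeded the technical SD of 0.11 to 0.18 for Col4a1, Col4a5, Col4a6 and Col18a1. That of Col4a2, 0.20, did so narrowly, beside a technical SD of 0.13. Scaling on the spike-in probes puts Col4a2 and Col4a4 below 0 and scaling on the median puts Col4a4 there, and the others of the class stay above 0 under both.

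In brainstem/cerebellum, where both arrays share a slide, fewer collagen genes differed. Of 35 measured genes, 3 passed 2-fold as higher on the transgenic array, Col20a1, Col3a1 and Col5a3, and 0 as lower, beside 2.74% and 0.293% of all genes. The median was 0.18, against -0.08 over all genes, and 27 of 35 were above 0, beside 37.7% of all genes. With scaling on the median 19 of 35 are above 0, where the median of all genes lies at -0.24 and that of the collagens at 0.01. Col20a1 differed by 2.51, or 5.69-fold, and 38 of 15362 genes had a larger difference. Col5a2 was at -4.21 on the transgenic array and not above background on the wild-type one, at least 2.02-fold higher, which with bounds counted makes 4, beside 3.67% of all genes. Behind these came Col12a1 at 0.99, Col13a1 at 0.74, Col24a1 at 0.71, Col6a2 at 0.67, Col16a1 at 0.62, Col6a1 at 0.60 and Col7a1 at 0.58. With normexp background correction Col3a1 falls short of 2-fold, which leaves 2 genes.

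Of the 33 collagen genes above background on all 4 arrays, 3 (Col20a1, Col3a1 and Col5a3) were at least 2-fold higher on the transgenic array in both tissues, beside 2.27% of all genes. With its sign kept, the difference in spinal cord was above that in brainstem/cerebellum for 23 of the 33, beside 52.0% of all genes. This count does not compare sizes. A gene further below 0 in spinal cord, such as Col11a2 at -0.41 against -0.11 in brainstem/cerebellum, is not among the 23. Several of the 33, such as Col19a1 and Col4a1, had opposite signs in the tissues with a small value in one. Col24a1, a fibrillar chain of developing bone, was the one of the 33 with opposite signs and at least 0.58 each way. It was at -4.04 in transgenic and -3.14 in wild-type spinal cord, and at -3.56 in transgenic and -4.27 in wild-type brainstem/cerebellum, so it was lower by 0.89 in the first tissue and higher by 0.71 in the second.

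**Figure D2:**
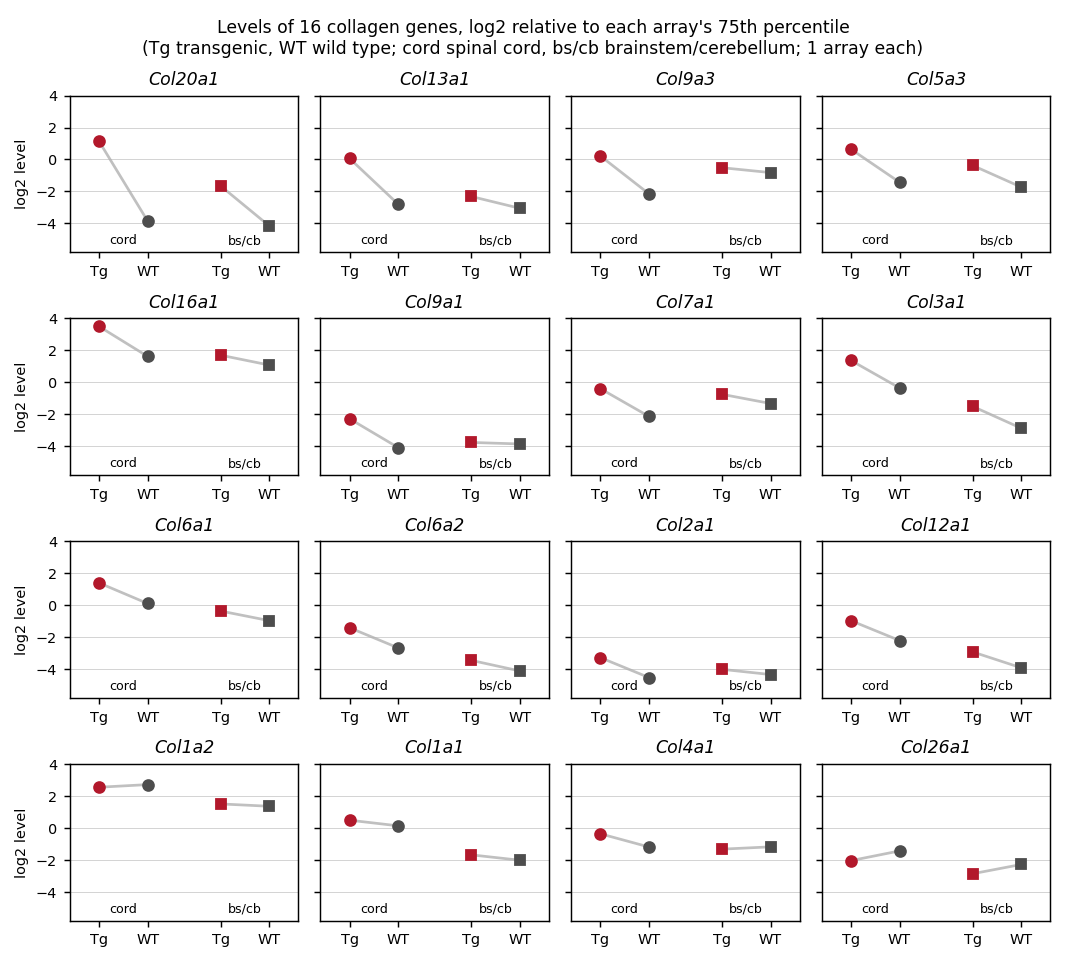
Level (log2 relative to the array's 75th percentile, vertical) of 16 collagen genes on each of the 4 arrays, spinal cord as circles and brainstem/cerebellum as squares, transgenic left of wild type. Col20a1, Col5a3 and Col3a1 slope down to the wild type in both tissues, Col9a3 and Col9a1 mainly in spinal cord, and Col1a2 stays nearly flat.

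The 2 transgenic arrays share a slide, so the tissue difference in transgenic mice lies within 1 slide. Of 36 collagen genes above background on both, 15 stood higher in spinal cord by at least 2-fold and 2 lower, beside 10.3% and 6.1% of all genes. In the wild type, across the slides, 10 of 34 were higher and 1 was lower, beside 6.5% and 4.28% of all genes, or 8 higher and 3 lower with scaling on the median. The 2 tissue comparisons and the 2 genotype comparisons share their arrays, so they are given side by side and not as separate evidence. Spinal cord stood higher in both genotypes for Col3a1 (2.88 in transgenic and 2.52 in wild-type mice), Col1a1 (2.17 and 2.15), Col6a2 (2.04 and 1.44), Col12a1 (1.96 and 1.71) and Col23a1 (1.74 and 1.78). Col1a2 did so by less, with 1.04 and 1.36.

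Other chains had their tissue difference in the transgenic mice. Col20a1 was higher in spinal cord by 2.80 in transgenic and 0.31 in wild-type mice, Col13a1 by 2.38 and 0.25, and Col16a1 by 1.80 and 0.54. Col9a3 turned its sign, with 0.74 in transgenic mice and -1.33 in wild-type mice, in which it was the one collagen gene above background in both tissues that was at least 2-fold lower in spinal cord. By its bound Col6a5 was at least 3.45-fold lower there. Col7a1 likewise stood at 0.36 and -0.81. The 2 genes at least 2-fold lower in transgenic spinal cord than in transgenic brainstem/cerebellum were Col19a1 at -1.46 and Col8a2 at -1.13. In wild-type mice these stood at -0.37 and -0.90.

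**Figure D3:**
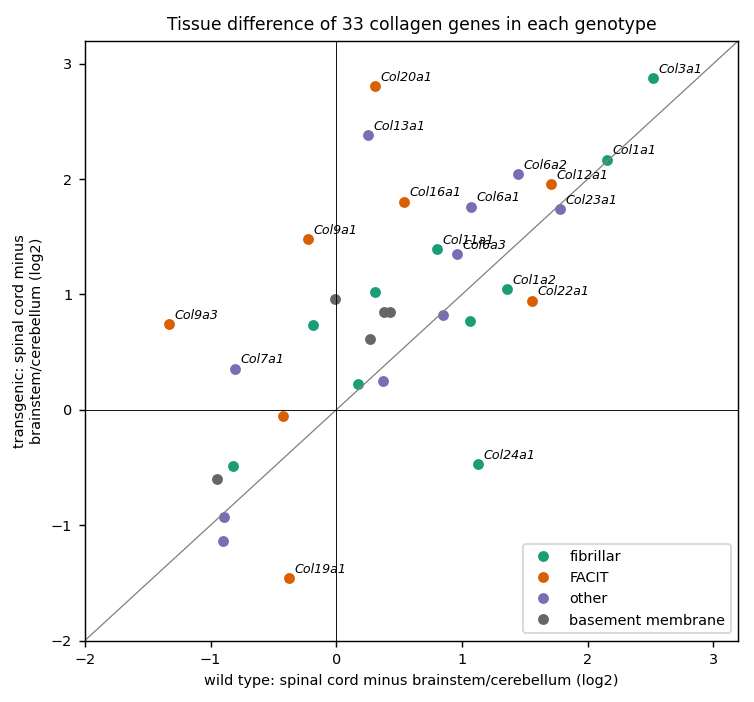
Tissue difference, spinal cord minus brainstem/cerebellum (log2), in transgenic (vertical) and wild-type mice (horizontal), for the 33 collagen genes above background on all 4 arrays, coloured by class. Points above the diagonal had a higher value, with its sign kept, in transgenic than in wild-type mice, as Col20a1 and Col13a1 did. Such a value need not be larger in size, as for Col9a3 at 0.74 in transgenic and -1.33 in wild-type mice. Col3a1 and Col1a1 lie at the upper right with a tissue difference in both genotypes.

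A collagen chain leaves the cell after hydroxylation, folding, trimming and cross-linking, and the genes for these steps were read from 6 lists. Their counts stand beside 8.6% of all genes at least 2-fold higher and 6.35% lower in spinal cord, and 2.74% higher and 0.293% lower in brainstem/cerebellum. Of 18 genes for modification and folding in the endoplasmic reticulum, 1 was at least 2-fold higher and 0 lower in transgenic spinal cord, and 0 of 17 either way in brainstem/cerebellum. Serpinh1, the chaperone HSP47 that binds procollagen, stood at -0.27 in spinal cord and -0.63 in brainstem/cerebellum. The 1 gene past 2-fold was P3h2, a prolyl 3-hydroxylase of basement membrane collagen, at 1.79 in spinal cord. The median of the list was 0.43 in spinal cord and -0.05 in brainstem/cerebellum.

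Of the genes for procollagen cleavage and cross-linking, 4 of 12 were at least 2-fold higher in each tissue. Lox, the oxidase that starts the cross-links of collagen and elastin, was at -0.30 in transgenic and -3.21 in wild-type spinal cord, and at -2.38 in transgenic and -4.50 in wild-type brainstem/cerebellum. Loxl2, a related oxidase with type IV collagen among its substrates, differed by 1.84 in spinal cord and 1.33 in brainstem/cerebellum, or by 1.43 and 0.48 at another probe. Tgm2, a transglutaminase, differed by 1.62 and 1.18. Bmp1, which removes the C-propeptide of fibrillar procollagens, differed by 1.71 in spinal cord and 0.22 in brainstem/cerebellum, though its lowest other probe gave 0.05 in spinal cord. Lower by at least 2-fold in transgenic spinal cord were 3 genes of the list. Adamts2, which removes the N-propeptide, stood at -1.08 but at 0.19 at another probe, and Pcolce2, an enhancer of C-propeptide removal, at -1.09. Tll1, a relative of Bmp1, stood at -4.14 but at -0.58 at another probe.

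Receptors and partners mostly stayed within 2-fold. Lair1, an inhibitory collagen receptor of leukocytes, was at 1.07 in transgenic and -0.79 in wild-type spinal cord and differed by 1.36 in brainstem/cerebellum. Mrc2, an endocytic collagen receptor, stood at -1.08 in spinal cord. Itgb1, the beta chain of the collagen-binding integrins, was at 3.84 in transgenic and 2.84 in wild-type spinal cord, and the receptor kinase Ddr1 differed by 0.63 there. Of the small proteoglycans that bind collagen fibrils, 1 of 6 passed 2-fold in spinal cord, Lum at 1.08, while Dcn stood at 0.05 and Ogn at -0.85. The median of the 6 was 0.40 there, with 5 of them above 0. Among partners of type IV collagen, 3 of 14 passed in spinal cord, among them the linker Nid2 at 1.86 and the laminin chain Lama5 at 1.31. In brainstem/cerebellum 0 of 15 did. Of the collagen-degrading proteases, 3 of 7 were at least 2-fold higher and 1 lower in spinal cord, and 1 of 6 each way in brainstem/cerebellum. Among them, Mmp2 differed by 1.06 in spinal cord and 1.29 in brainstem/cerebellum, and Mmp14, which activates it, by 1.51 and -0.13. Mmp9 was lower in both tissues, by 1.67 and 1.01.

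**Figure D4:**
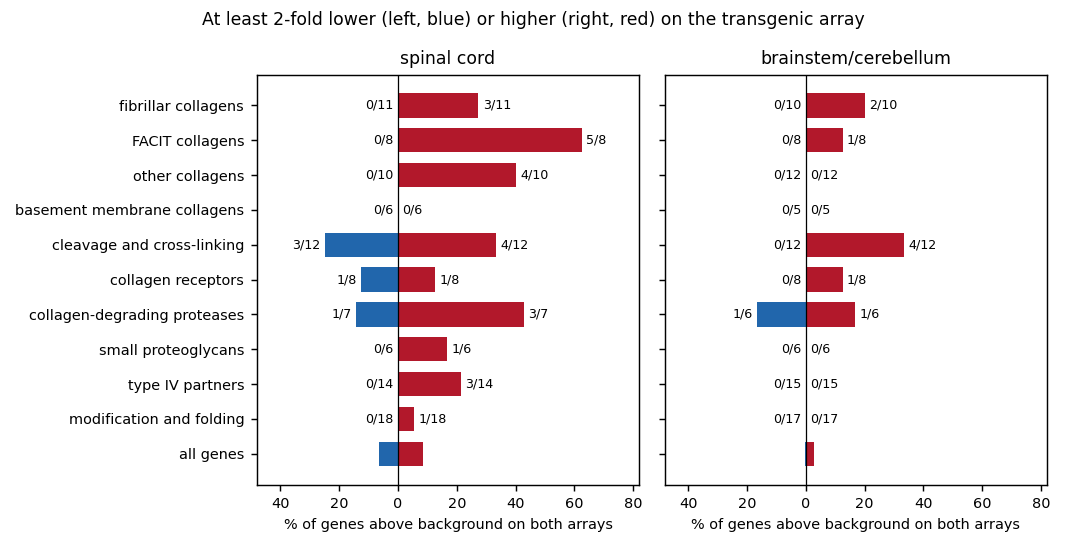
Share of genes above background on both arrays (percent, horizontal) that were at least 2-fold higher (red, right) or lower (blue, left) on the transgenic array, in spinal cord (left panel) and brainstem/cerebellum (right panel), for 4 collagen classes, 6 lists of partner genes and all genes, with counts beside the bars. FACIT collagens have the longest bar in spinal cord, at 5 of 8, and no collagen class has a bar on the lower side in either tissue.

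Collagen genes are expressed by several cell types that a dissected sample can hold, and in such bulk samples fewer cells of a type and less RNA per cell cannot be told apart. Marker levels, summed on a linear scale with the 75th percentile at 1, are given for that reason. Of 10 genes of fibroblasts and meninges, 9 were measured on both spinal cord arrays, with a sum of 25.3 in transgenic and 28.4 in wild-type spinal cord and a median difference of -0.52. Lum was the 1 of them at least 2-fold higher, 2 were at least 2-fold lower, Osr1 at -1.95 and Slc22a6 at -1.51, and Twist1 was above background on no array. In brainstem/cerebellum the sum was 12.7 in transgenic and 10.68 in wild-type mice.

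Of 5 vascular smooth muscle genes the sum was 13.8 in transgenic and 6.92 in wild-type spinal cord, with Tagln at 1.35 and Myh11 at -0.94, and 5.83 in transgenic and 5.67 in wild-type brainstem/cerebellum. The sum of 6 pericyte genes was 5.21 in transgenic and 5.65 in wild-type spinal cord, and 4.69 and 5.55 in brainstem/cerebellum. That of 7 endothelial genes was 11.3 in transgenic and 9.49 in wild-type spinal cord. Peripheral myelin genes, a sign of nerve roots, were lower in transgenic spinal cord, with a sum of 6.78 over 4 genes against 19.5 in the wild type, and Pmp2 above background on no array. Of 6 skeletal muscle genes the sum was 1.23 in transgenic and 2.31 in wild-type spinal cord, and of 6 bone genes 0.69 and 1.75, with Ibsp and Bglap above background on no array. Cartilage genes summed to 4.53 in transgenic and 2.75 in wild-type spinal cord, with Matn4 at 2.17 and Acan at -1.33. Of the 4 cartilage genes measured on both arrays, 1 was above 0 and 3 were below, with a median difference of -0.75. By its bound, 1 further cartilage gene was at least 2-fold higher. All 5 microglia and macrophage genes were at least 2-fold higher in transgenic spinal cord, with a sum of 162 against 32.4, and their sum in brainstem/cerebellum was 44.9 in transgenic and 20.6 in wild-type mice. Astrocyte genes summed to 100.3 in transgenic and 59.6 in wild-type spinal cord, while all 4 neuron genes were lower, with a sum of 75.6 in transgenic and 115 in wild-type spinal cord. The sum of 4 oligodendrocyte genes was 244.5 in transgenic and 307.5 in wild-type spinal cord. That of 5 choroid plexus genes, bright in brainstem/cerebellum, was 0.58 in transgenic and 1.18 in wild-type spinal cord. The 6 Hox genes of the spinal cord, which mark the tissue and not a cell type, also differed, with a sum of 11.45 in transgenic and 23.1 in wild-type spinal cord, and 6 genes of the cerebellum summed to 7.58 and 10.8 there. The part of these cells, and of the dissected stretch of tissue, in the collagen differences was not tested.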

How the data were processed

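The deposited scanner files give the intensity of each spot, not logged. Per the file headers, Agilent Feature Extraction (version 9.5.1.1 per the submitters' processing notes, another one per the headers) subtracted the background and detrended each array, and probe coordinates are those of mm9. The authors' series table holds intensities too, all columns with a median of 30.4. The sources used here do not name its normalization. It served as an alternative. Here control spots and the 63 to 134 spots per array flagged as outliers were left out, log2 of the processed signal minus each array's 75th percentile (a signal of 410 and 678 in transgenic and wild-type spinal cord, 458 and 437 in transgenic and wild-type brainstem/cerebellum) was taken and spots of a probe were averaged. Of the spots, 59.2% to 64.0% were well above background and none saturated. The number of arrays limits the precision.

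Genes were counted where their brightest probe passed the scanner's well-above-background flag on both arrays compared. For a gene above background on 1 array, the bound uses, on the dim array, the lowest level that passed this flag (-5.76 to -5.23) or the probe's own level if higher. Genes are named where they were among the 24 largest genotype differences, the 2 brightest of a class or the 5 largest tissue differences each way in a genotype, and of other lists up to 4 members per tissue. One list member that this rule names is not reported here. Members that fall outside this rule were chosen after their values were seen. The members and lists were chosen with earlier results of these data known. Technical error came from 300 probes with 10 or more spots and 10 spike-in probes. For levels above 1 it rests on 1190 values of a probe on an array. Between -5 and 1, each step of 1 rests on 4 to 8 such values, and levels below -5 on 16. Python 3.11.15, pandas 2.3.3, and R 4.3.3 with limma 3.58.1 (normexp, offset 50, and quantile) were used.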

Additional observations from a re-analysis of the deposited data

Results flagged for a closer look

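Col24a1 had opposite signs in the tissues. Its difference between transgenic and wild-type mice was -0.89 in spinal cord and 0.71 in brainstem/cerebellum, and the first minus the second is -1.60. The difference between tissues was not tested, since each rests on 1 array per group, and the spinal cord arrays lie on different slides.

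Other probes of 3 genes, which the counts above do not use, passed 2-fold as higher in transgenic mice where the brightest probe did not. A second Col6a5 probe was above background on the array of transgenic brainstem/cerebellum alone, at -3.57, which bounds the log2 difference at 1.66 or more, while the brightest probe gave 0.13. A second Col11a1 probe gave 1.25 in spinal cord, where the brightest gave 0.92. A second Col22a1 probe was above background in transgenic spinal cord alone, with a bound of 1.05, against -0.53 at the brightest probe. Other probes of 3 more genes passed it as lower. A second Col26a1 probe gave -1.12 in spinal cord, where the brightest gave -0.61. A Col1a2 probe had a bound of -1.10 in spinal cord, against -0.17 at the brightest, and a Col6a3 probe a bound of -2.68 in brainstem/cerebellum, against 0.35 at the brightest.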

How the results depend on the processing

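Every result rests on 1 array per group, so no spread between animals is known, and dim probes carry a technical SD of up to 0.71. No paired analysis was possible because each group has 1 array. Of the 110 comparisons of a count or median with its value under an alternative, 82 stayed within 1.5 times (counts) or within the technical SD (medians). The cause of the others was not tested. Counts of collagen genes higher in transgenic spinal cord (12) ranged over the alternatives between 8 and 17, and no alternative moved them by over 1.5 times. Genes lower there, 0 as reported, were 1 with quantile normalization, with the authors' values, with the mean of all probes and with no filter, 2 with spike-in scaling and 3 at 1.5-fold. The spinal cord median, 0.53, was 0.17 with spike-in scaling and 0.76 as a mean. In brainstem/cerebellum, higher genes (3) were 1 with the mean of all probes, 9 at 1.5-fold and 1 at 3-fold, and lower genes (0) were 1 with the mean of all probes. In transgenic mice, genes higher in spinal cord than in brainstem/cerebellum (15) were 8 with the mean of all probes, 25 at 1.5-fold and 9 at 3-fold, and lower ones (2) were 0 with normexp correction, 1 with the mean of all probes, 4 at 1.5-fold and 0 at 3-fold. In wild-type mice, higher ones (10) were 4 with normexp correction, 5 with the mean of all probes and 4 at 3-fold, and lower ones (1) were 3 with median scaling, 3 with the mean of all probes, 2 with no filter, 2 with bounds counted, 6 at 1.5-fold and 0 at 3-fold. Requiring every measured probe of a gene to pass, chosen after seeing the data, left 10 higher genes in spinal cord and 3 in brainstem/cerebellum. Of the genes higher in spinal cord, only Col6a2, Col9a3 and Col13a1 had a second probe above background on both arrays. Col9a3 passed at both probes, while Col6a2 (0.77) and Col13a1 (-0.86) failed at the second. The other genes, and all of those in brainstem/cerebellum, had 1 such probe, so this rule could not remove them.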
